A study of Mus musculus with 4 samples.

Results

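Compact loci crowded with peaks are short stretches of the mouse transcriptome in which at least 8 eIF4A3 peaks lay within 6000 nt of one strand. They were chosen from the deposited peak list by position. Peaks on the same chromosome and strand were joined where no more than 10000 nt separated neighbours, and a joined group, here called a locus, was compact when it held 8 or more peaks and spanned 6000 nt or less. By this rule 130 loci with 1495 peaks were members, which is 12.7% of the 1025 loci of 8 or more peaks and 4.86% of the 30763 peaks in the list. The other 895 loci of that size held 16818 peaks over longer spans.

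The peaks came from enhanced crosslinking and immunoprecipitation (eCLIP) in J1, an embryonic stem cell line of the mouse strain 129S4/SvJae grown without feeder cells in medium with serum and leukemia inhibitory factor. Cells were irradiated with ultraviolet light of 254 nm at 400 mJ/cm2, which links proteins to the RNA they touch. The series held 2 input libraries, made without an antibody, and 2 libraries from RNA pulled down with an antibody to eIF4A3; the replicates of each group are given as biological. A single line was used and no genotype or treatment differed between the groups. The list gives 1 log2 fold change and 1 −log10 p per peak and no value per library or read total, so no error over replicates can be stated and no test between groups was made. Both values are the authors' own for each peak and are used here to describe and rank. The defining markers of embryonic stem cells could not be checked, since the list holds no expression values.

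The helicase eIF4A3, of the DEAD-box family, is the subunit of the exon junction complex that clamps onto RNA. The spliceosome deposits this complex on spliced RNA a short way upstream of exon-exon junctions, and translating ribosomes later remove it. A complex that stays on the RNA downstream of a stop codon can mark the transcript for nonsense-mediated decay, and the last exon, with no junction after it, receives none by this route.

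Genes could be attached to part of the compact loci from the pattern of the peaks themselves. A peak list cut at splice junctions leaves gaps the length of introns, so the gaps of at least 60 nt between neighbouring peaks were compared with the introns of coding transcripts of the same chromosome and strand in GENCODE M21. A gap counted as matched when its length was within 1 nt of an intron, and the matched gaps of a gene had to lie as far from each other as the introns do, within 2 nt. In 53 of the 130 loci (40.8%) at least 2 gaps matched 1 gene and no other gene on that chromosome strand had as many. Those loci held 139 matched gaps of 354 of that length, 89 of them equal to the intron to the nucleotide. When the same loci were compared with genes on the opposite strand, none of the 130 reached 2 matched gaps. This comparison was devised after the data had been seen, and the annotation is on GRCm38, another build than the list, so only lengths and distances within a gene were used. A further 5 loci (Nop56, Idh3b, Rack1, Pabpn1 and Srsf5) are named from general knowledge of where these genes lie on mm9, and 72 stay unnamed. A named locus can be a small part of its gene, and values given for a gene are those of its compact locus. With introns included, the locus spanned 1.56% of the matched transcript in Msi2, 1.58% in Smg6, 8.77% in Acin1 and 84.0% in Trim28.

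The clearest match was Clk1, a kinase that phosphorylates serine- and arginine-rich splicing factors, on the minus strand of chromosome 1 at 58469152 to 58474149. Its peaks left 7 gaps of at least 60 nt, of which 6 matched introns of the 13-exon transcript. Gaps of 898, 362, 209 and 305 nt after its peaks 9, 14, 18 and 22 matched introns 9 to 12, whose lengths are 899, 363, 209 and 306 nt. These 4 neighbouring introns were thus bracketed by peaks on both sides. Ctu2, which takes part in the thiolation of transfer RNA, lies on the plus strand of chromosome 8 at 125000129 to 125005433 and had 5 matched gaps of 11. In Trim28, a co-repressor that silences retroelements in embryonic stem cells, a gap of 1840 nt after peak 15 equalled intron 3. In Hnrnpa2b1, which encodes an abundant nuclear RNA-binding protein, gaps of 132, 80, 900 and 631 nt equalled introns 2, 5, 6 and 7. In Ddx5, a DEAD-box helicase that takes part in splicing and transcription, gaps of 1198, 364 and 530 nt equalled introns 1, 2 and 5.

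The exons below are shown because each ends at a matched gap, so that its last base is the exon side of a splice junction, and because they hold the highest peak among such coding exons of at most 150 nt in Ddx5, Gigyf1, Trim28, Clk1, Hnrnpa2b1 and Ctu2, which were picked from the loci rich in peaks and matched gaps after their values were seen. They are read 5′ to 3′ from the GENCODE M21 transcript, and capitals mark the bases under that peak, which may be off by up to 2 nt since peaks were placed by distance within the gene.
Ddx5 exon 5: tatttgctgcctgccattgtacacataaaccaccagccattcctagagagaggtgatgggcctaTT
Gigyf1 exon 15: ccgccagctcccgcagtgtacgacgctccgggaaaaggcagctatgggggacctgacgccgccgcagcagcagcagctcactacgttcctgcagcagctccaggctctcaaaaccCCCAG
Trim28 exon 3: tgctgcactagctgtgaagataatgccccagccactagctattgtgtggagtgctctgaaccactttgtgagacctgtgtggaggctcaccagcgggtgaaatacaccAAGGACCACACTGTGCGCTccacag
Clk1 exon 11: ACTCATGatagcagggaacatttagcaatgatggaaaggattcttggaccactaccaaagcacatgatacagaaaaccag
Hnrnpa2b1 exon 7: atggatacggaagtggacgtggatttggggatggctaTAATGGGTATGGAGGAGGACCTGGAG
Ctu2 exon 6: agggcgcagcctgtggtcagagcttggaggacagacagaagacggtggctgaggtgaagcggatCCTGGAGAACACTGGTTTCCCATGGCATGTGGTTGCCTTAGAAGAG
A matched gap starts directly after a peak, so by the choice made a peak ends at or near the last base of each of these exons. The exons of Clk1, Trim28 and Hnrnpa2b1 also start after a matched gap. The places of the capitals are therefore no separate evidence of where peaks lie. In Ddx5, Gigyf1, Hnrnpa2b1 and Ctu2 the capitals run to the last base of the exon, and in Trim28 they end 6 nt before it. In Clk1 they are the first 7 bases, directly after the junction, which is the opposite end of the exon. The peaks under the capitals were 14.7-fold in Ddx5, 7.51-fold in Gigyf1, 9.26-fold in Trim28, 9.97-fold in Clk1, 10.4-fold in Hnrnpa2b1 and 8.95-fold in Ctu2.

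**Figure D1:**
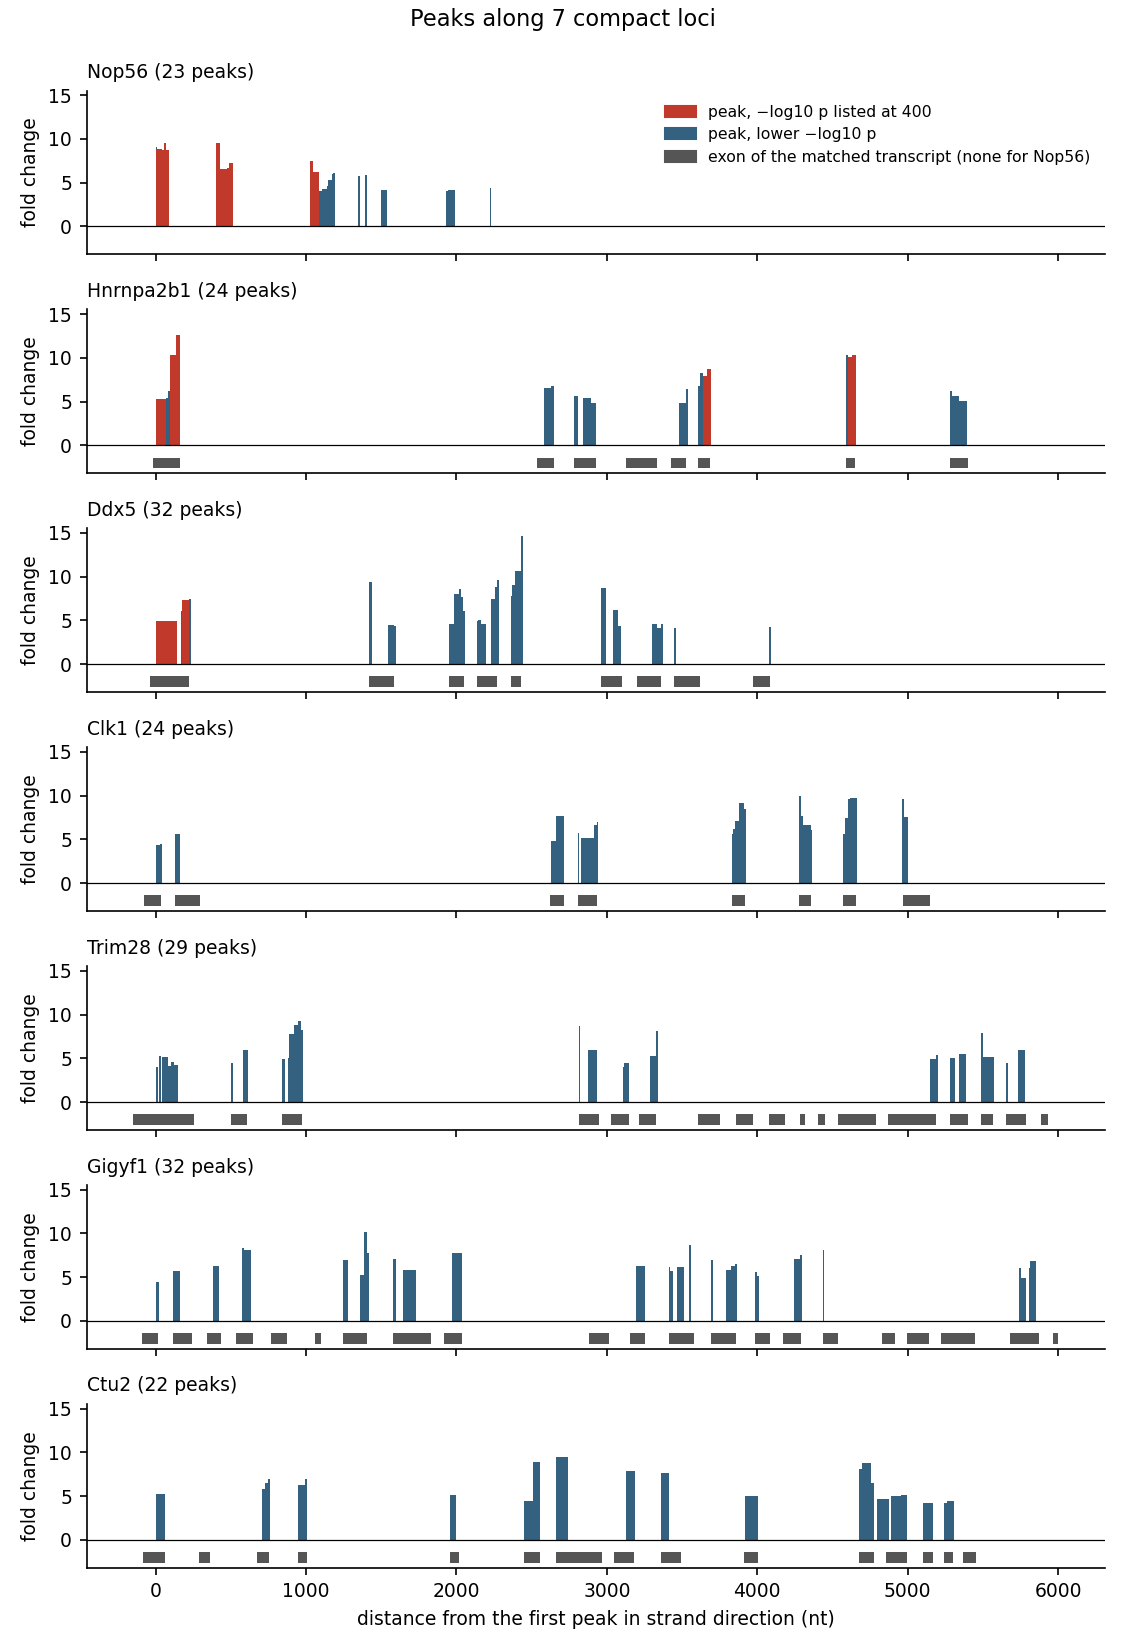
Peaks along 7 compact loci, drawn by distance from the first peak in strand direction (nt) with the fold change of each peak as bar height; peaks narrower than 12 nt are drawn 12 nt wide. Grey blocks are exons of the matched transcript (Nop56 has none drawn), red bars are peaks listed at a −log10 p of 400, and bars stand over the exons, with 10 of the 23 Nop56 peaks red at its start.

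Peaks of the matched loci sat in exons. Of the 736 peaks in the 53 loci, 711 (96.6%) lay within an exon of the matched transcript, 11 lay in introns, 11 ran across an exon edge and 3 lay outside the transcript, while exons made up 25.5% of the spans of these loci. Peaks directly beside a matched gap are exonic by the way the match was made. Among the other 458 peaks, 435 (94.98%) lay in exons and 11 (2.40%) in introns. In 40 of the 53 loci every peak was within an exon. Cyb5r1 and Srsf6 held 3 intron peaks each and Rabggta held 2. The 3 of Srsf6, an SR splicing factor, were its first peaks, with folds of 4.56, 5.03 and 4.97.

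Few of these peaks lay in last exons, a count that the span limit and the way loci were named bear on. A locus was named only where at least 2 gaps matched introns. Loci with all their peaks in a last exon could therefore not be among the 53, and the shares below hold for named loci only. Internal exons held 642 of the 711 exonic peaks, first exons 53 and last exons 16, the last a share of 2.25%. In 20 of the 53 loci the last exon starts more than 6000 nt after the first peak, so that a peak there could not belong to a compact locus. In the other 33 loci, last exons held 16 of 436 exonic peaks (3.67%) and made up 40.6% of the exonic length between the first peak and 6000 nt after it. Where the last exon also ends within that distance, in 19 loci, they held 13 of 229 peaks (5.68%) on 46.8% of that length. These shares were added after the data had been seen and carry no test. The 16 peaks came from 11 loci, among them Clk1, where peaks of 9.58-fold and 7.59-fold lay in exon 13, and Acin1, which encodes a component of a complex that associates with the exon junction complex, where 3 peaks of 4.08- to 4.25-fold lay in exon 19. In the 11 loci with peaks in both kinds of exon, the median log2 fold change in the last exon was lower than in internal exons in 7, by 0.12 at the median of the differences (-0.12). The −log10 p was lower in the last exon in 8 of the 11, with a median difference of -1.16. Over all exonic peaks, the median was 5.83-fold in last exons beside 6.49-fold in internal exons. At least 8-fold was reached by 3 of the 16 peaks in last exons (18.75%), beside 29.4% of those in internal exons.

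Within internal exons the peaks lay toward the downstream end. Internal exons of 80 nt or more that held a peak numbered 274, and 89 of them adjoined no matched gap. Exons beside a matched gap have a peak at or near that edge. Leaving them out lowers the coverage near both edges in the 89 that remain. Of those 89 exons, 57.3% were covered by a peak at the position 24 nt before the exon end, and 22.5% at the position 24 nt after the exon start. Coverage was highest, at 62.9%, 32 nt before the end, and fell to 37.1% at 10 nt and 4.49% at the last nucleotide. At the start it was highest at 28.1%, on nucleotide 5. Over all 274 exons, which include those chosen for a peak at their edge, the shares at 24 nt were 66.1% before the end and 34.7% after the start. The last nucleotide was covered in 35.4% of the 274, beside 4.49% of the 89. The first was covered in 41.6%, beside 5.62%, so the low values at the edges in the 89 come in part from the choice of exons. In both sets the downstream end was covered more often than the upstream end from 6 to 40 nt from the edge, and less often at the first 5 nt.

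The peak with the highest value in an exon was also nearer the end. Among the 111 internal exons of any length beside no matched gap, the peak with the highest log2 fold change was centred nearer the exon end in 73 and nearer the start in 37. By −log10 p the counts were 76 and 34. The lean was weaker over all 329 internal exons, which include those beside a matched gap. There the counts were 188 and 140 by fold change and 193 and 135 by −log10 p. In the 119 exons beside no matched gap that had a junction after them, the centre of the peak with the highest fold change lay at a median of 35.5 nt before the exon end, with quartiles of 24.8 and 63.2 nt, and by −log10 p at 36.5 nt. Exons within 1 transcript share reads and are not independent replicates, and these distances are a description without a test.

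**Figure D2:**
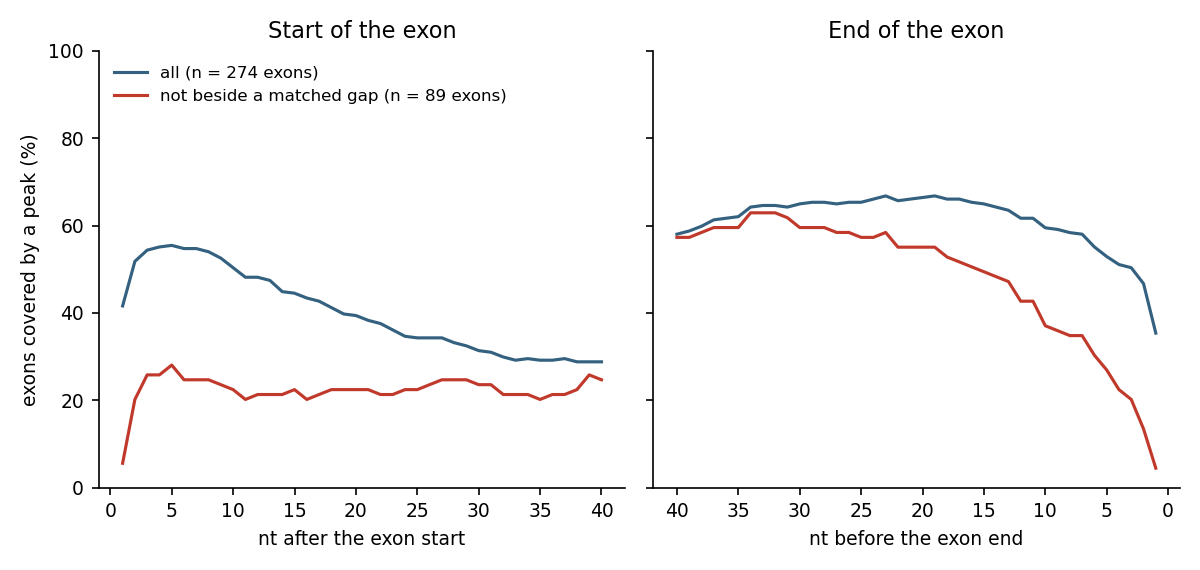
Share of internal exons of 80 nt or more covered by a peak (%), at each nucleotide from 1 to 40 after the exon start (left) and before the exon end (right), for all 274 exons with a peak (blue) and the 89 beside no matched gap (red). The red line reaches 28.1% after the start and 62.9% before the end.

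The loci with the most peaks could all be named. Ddx5 (chromosome 11, minus strand, 106645728 to 106649809) and Gigyf1, which encodes a scaffold protein of translational repression (chromosome 5, plus strand, 137960197 to 137966047), held 32 peaks each, Trim28 (chromosome 7, plus strand, 13610155 to 13615935) held 29, and Clk1 and Hnrnpa2b1 (chromosome 6, minus strand, 51414436 to 51419829) 24 each. Ipo4, an importin (chromosome 14, minus strand, 56249225 to 56254488), also held 24 and came after them only because ties were ordered by chromosome. Genes tied to the exon junction complex or to decay were also matched, and were picked out after their values were seen. Acin1 held 22 peaks with a median of 6.23-fold, Pnn, whose product binds the exon junction complex at its periphery, held 10 with a median of 5.49-fold, and Smg6, the endonuclease of nonsense-mediated decay, held 8 with a median of 6.83-fold. These are counts and medians of the compact loci and not of whole genes. Eif4a2, a paralog of eIF4A3 that acts in translation, held 13 peaks with a median of 5.73-fold, 3 of them listed at a −log10 p of 400.

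In Ddx5 the peaks formed 10 sites, a site being peaks no more than 50 nt apart, and covered exons 1 to 9 of 13. Exon 1 held 4 peaks, of 4.93-, 6.09-, 7.39- and 7.51-fold, with the 4.93- and 7.39-fold peaks at the top listed −log10 p of 400. Exon 3 held 5 peaks between 4.57- and 8.57-fold. In exon 4 the first 3 peaks were between 4.60- and 5.07-fold and the last 3 were 7.44-, 8.78- and 9.67-fold. The highest peak of the locus, 14.7-fold, was the last one in exon 5, directly before the gap that equalled intron 5. After exon 7 the 2 remaining peaks were at 4.15- and 4.30-fold.

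In Hnrnpa2b1 the highest folds were in exons 1, 6 and 7. The last peaks of exon 1 were 10.3- and 12.6-fold, the last of exon 6 was 8.72-fold and the 4 peaks of exon 7 were 9.91- to 10.4-fold. Exons 2, 3, 5 and 8 held peaks between 4.80- and 6.78-fold, and exon 4 held none. All 7 of its peaks listed at 400 were in exons 1, 6 and 7. Trim28 had its highest fold change in exon 3, with peaks of 7.78-, 8.76-, 9.26- and 8.20-fold before the 1840-nt gap and 8.65-fold directly after it. Its highest −log10 p, 88.1, was at peak 27, directly before the gap that matched intron 15. Trim28 had no peak in exons 7 to 12 of 17.

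Fold change and −log10 p picked out different loci. The highest median fold changes were 11.55 for Aaas, which encodes a nuclear pore protein (chromosome 15, minus strand, 102169651 to 102174538), 11.54 for an unnamed locus on the minus strand of chromosome 17 at 15622595, and 11.2 for Syvn1, a ubiquitin ligase of the endoplasmic reticulum (chromosome 19, plus strand, 6047063 to 6051440). Unnamed loci on the plus strand of chromosome 6 at 33568551 and of chromosome 13 at 14156053 followed, each with a median of 11.1-fold. In Aaas the values changed within exon 8: the first 5 peaks, in exons 7 and 8, were 4.10- to 5.01-fold, the next, also in exon 8, was 30.3-fold, and the 6 that followed, in exons 10 to 13, were 11.3- to 19.7-fold. The 2 last peaks of exon 10 carry the same value, 19.7-fold, so they do not count as separate measurements.

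The highest median −log10 p values belonged to Hnrnpa2b1 with 69.2, Pabpn1, the nuclear poly(A)-binding protein, with 53.3, Nop56, a core protein of box C/D small nucleolar ribonucleoproteins, with 53.0, an unnamed locus on the plus strand of chromosome 1 at 63492594 with 49.4, and Pfkp, a phosphofructokinase, with 45.7. Their median fold changes were 6.52, 5.91, 6.13, 5.85 and 6.23, so none was among the 5 loci highest by fold. The lowest median fold change was 4.43 for Rack1, a scaffold protein of the ribosome, and Srsf5, an SR splicing factor, was among the 5 lowest at 4.62 although 1 of its 9 peaks was listed at 400. Across the 130 loci the rank correlation of median log2 fold change with median −log10 p was -0.023, beside -0.025 across the other 895 loci. The points share libraries, and the reads behind each value are unknown.

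Both values fell along Nop56. Its 23 peaks lay on the plus strand of chromosome 2 at 130100370 to 130102593. The first 6 were between 8.68- and 9.54-fold, peaks 7 to 11 between 6.22- and 7.52-fold, and the last 4 between 4.08- and 4.42-fold. All 10 of its peaks listed at 400 were among the first 11, and none of the last 12 exceeded 55.4. The rank correlation with position was -0.77 for −log10 p and -0.84 for log2 fold change. Idh3b, a subunit of mitochondrial isocitrate dehydrogenase, is the next coding gene after Nop56 in the annotation, and its compact locus of 13 peaks lay 3618 nt away on the opposite strand, with correlations of -0.59 and -0.53. Both thus fell along their own direction of transcription while lying on opposite strands. Any peak on the opposite strand, in a compact locus or not, lay within 5000 nt of 13 of the 130 loci and within 1000 nt of 3. The longer loci were not counted in this way, so no background stands beside these counts.

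Over all compact loci −log10 p fell weakly from the 5′ to the 3′ end and fold change did not. The rank correlation of −log10 p with position had a median of -0.20 and was below 0 in 83 of 130 loci (63.8%), beside 65.9% of all 1025 loci of 8 or more peaks, so the share below 0 was near the background. For log2 fold change the median was 0.005, with 65 of 130 below 0, beside 53.9% of the 1025. The first peak of a locus had a median −log10 p of 12.5 and the last of 9.75, beside 12.01 and 9.225 in the other 895 loci. The first was the higher of both in 85 of 130 loci (65.4%), beside 66.4% of the other loci. With the peaks of each locus split by order into 3 parts, the highest −log10 p fell in the first part in 62 loci (47.7%). It fell in the middle in 36 (27.7%) and in the last in 32 (24.6%). In the other loci these shares were 48.8%, 30.3% and 20.9%, so this lean to the 5′ end was not particular to compact loci. Correlations were more extreme in compact loci than in longer ones: they were below -0.5 for −log10 p in 26.9% beside 16.2% and above 0.5 in 9.23% beside 3.46%, with fewer peaks per locus behind each. Loci went either way. Clk1 (0.56), Trim28 (0.48), Aaas (0.80) and Smg6 (0.76) had correlations of −log10 p above 0, and Pnn (-0.87), Eif4g2 (-0.78) and Vps16 (-0.82) below 0.

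**Figure D3:**
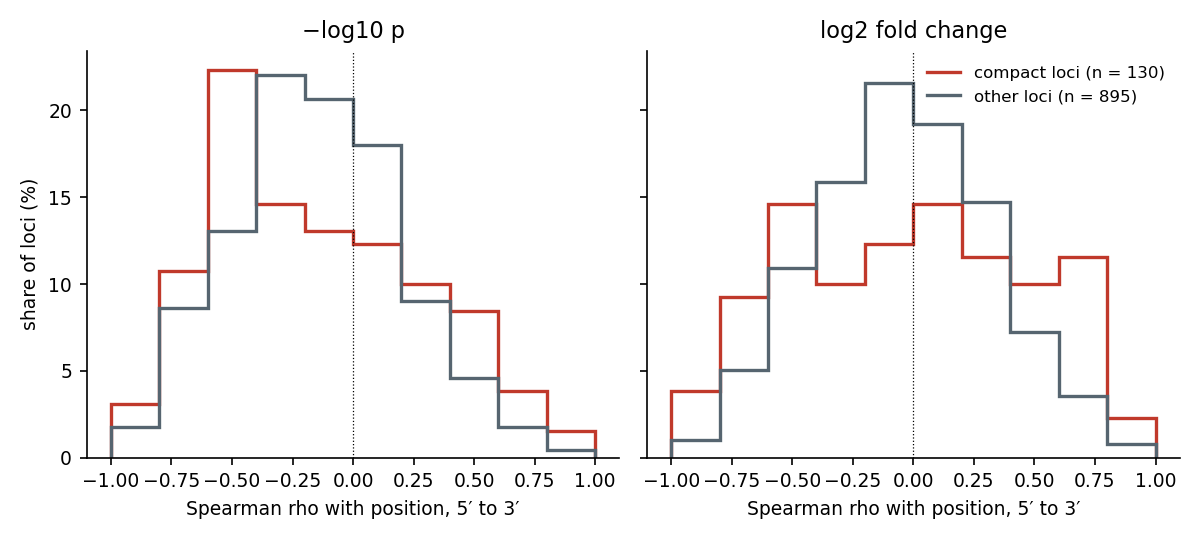
Share of loci (%) by Spearman correlation of −log10 p (left) or log2 fold change (right) with position from 5′ to 3′, for 130 compact loci (red) and 895 other loci of 8 or more peaks (grey). The compact loci are centred at -0.20 and 0.005 and are spread more widely than the other loci.

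Compact loci had lower fold changes than longer loci, by a small margin. The median log2 fold change of member peaks was 2.63 (6.20-fold), beside 2.76 (6.79-fold) for the other loci of 8 or more peaks and 2.72 for all peaks. At least 8-fold with a p of at most 0.001 was reached by 397 member peaks (26.6%), beside 34.5% in the other loci and 32.3% of all peaks in the list. At 16-fold with a p of at most 1e-05 there were 31 member peaks (2.07%), beside 3.63% and, over the list, 3.65%. Every peak in the list meets both limits on p, so these shares rest on the fold change alone. No peak reached the first threshold in 30 compact loci (23.1%), beside 8.83% of the other loci, although compact loci also have fewer peaks. With loci of like numbers of peaks set side by side the share was lower in compact loci in 3 of 4 classes. Among loci of 8 or 9 peaks it was 24.1% beside 32.2%, and among those of 10 to 14 peaks 25.6% beside 30.8%. Among those of 15 to 24 peaks the order turned, at 32.5% beside 31.5%, and the 3 compact loci of 25 or more peaks had 21.5% beside 38.8%. These shares are descriptions without a test.

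The highest −log10 p values were concentrated in few compact loci. The top listed value of 400 was given to 29 member peaks (1.94%), beside 0.268% in the other loci and 0.289% of the list. Those 29 peaks lay in 9 loci, which are Nop56 with 10, Hnrnpa2b1 with 7, Eif4a2 with 3, Msi2, Ddx5 and the unnamed locus at 63492594 on chromosome 1 with 2 each, and Ewsr1, Srsf5 and Pabpn1 with 1 each. The median −log10 p of member peaks was 13.4 beside 12.55 in the other loci. This order turned when the loci with a peak at 400 were left out of both sets, to 12.23 beside 12.3, and when each site counted once, to 11.25 beside 11.71. Across the 130 loci, the rank correlation of peaks per 1000 nt was 0.448 with the median −log10 p and -0.121 with the median log2 fold change. In the other 895 loci these were 0.379 and -0.004.

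**Figure D4:**
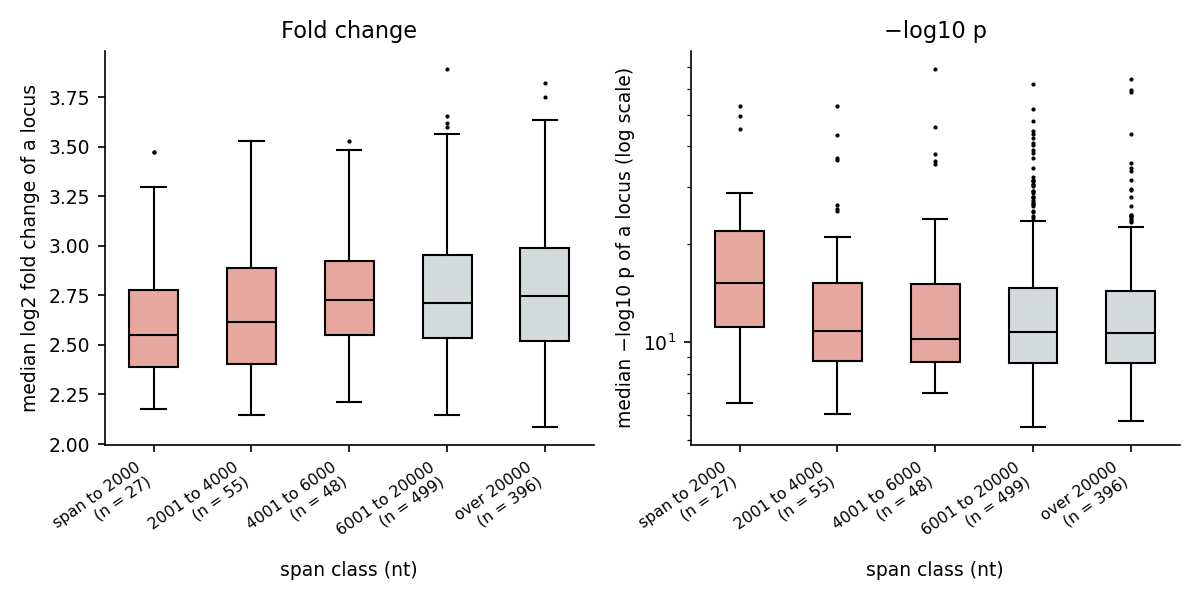
Median log2 fold change (left) and median −log10 p on a log scale (right) of each locus of 8 or more peaks, by span class in nt; boxes show the quartiles and the median of loci, whiskers reach 1.5 times the box height, and red boxes are the compact loci. The boxes of all classes overlap in both measures.

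Spacing follows in part from the rule, which limits the span, and is given as a description. The loci spanned 576 to 5994 nt, with a median of 3535 nt beside 18120 nt in the other loci, and held 3.24 peaks per 1000 nt at the median beside 0.829. Neighbouring peaks were separated by a median of 77 nt beside 192 nt. In 503 of 1365 neighbouring pairs (36.9%) the next peak began at the nucleotide after the end of the one before, beside 26.3% of pairs in the other loci. Of all 30763 peaks in the list 20.7% began so, a share that also counts solitary peaks and the first peak of each locus. In compact loci adjoining peaks differed by a median of 0.17 in log2 fold change, and peaks over 500 nt apart by 0.33, beside 0.20 and 0.37 in the other loci. In −log10 p the order was the opposite, with medians of 4.57 for adjoining peaks and 3.54 for those over 500 nt apart. The other loci had the same order, at 3.61 and 3.46. Peaks within 50 nt formed 863 sites, of which 56.9% were single peaks. A median of 285 nt separated neighbouring sites, with quartiles of 124 and 732 nt.

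Gaps of 80 to 99 nt formed a local maximum. They numbered 77 (5.64% of gaps), while the 20-nt class below held 42 gaps and the class above held 41. Relative to the class below it, the maximum stood at 1.83 in compact loci and 1.30 in the other loci. Short mouse introns are commonly near this length, and 23 of the 139 gaps that matched introns fell in this class and 4 in the class below.

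**Figure D5:**
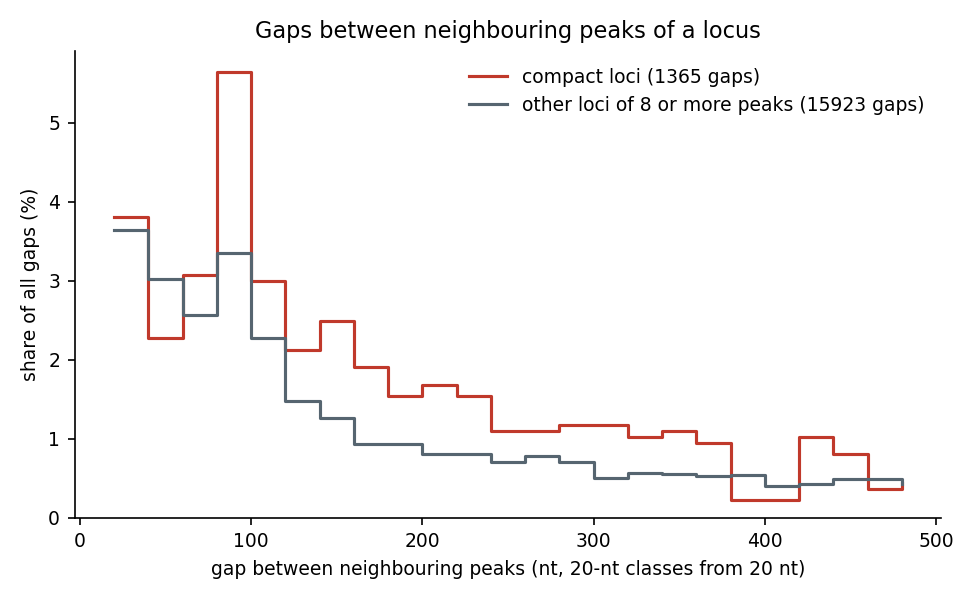
Share of all gaps between neighbouring peaks (%) by gap length in classes of 20 nt from 20 to 500 nt, for 1365 gaps in compact loci (red) and those of the other loci (grey). The class of 80 to 99 nt reaches 5.64% in compact loci, above the classes on either side.

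The locus with the most peaks per 1000 nt could not be named. This locus on the plus strand of chromosome 1 at 39957837 to 39958412 held 9 peaks in 576 nt, or 15.6 per 1000 nt, with a median of 5.17-fold and no peak past 8-fold. Another on the same strand at 136456822 to 136457879 held 15 peaks in 1058 nt, which covered 65.9% of it. The locus on the plus strand of chromosome 6 at 33568551 to 33569276 held the 3 member peaks with the highest fold change. These 3 adjoined each other between 33568744 and 33568929, with folds of 32.9, 46.8 and 32.5 and −log10 p of 33.3, 48.5 and 15.7, while the other peaks of the locus ranged from 2.31 to 4.26 in log2 fold change. The next highest member peaks were in Msi2, a Musashi RNA-binding protein, with 31.2-fold in exon 2, and in Aaas with 30.3-fold in exon 8.

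The limits of the rule fell among like loci. The 52 loci of 7 peaks within 6000 nt, which were just outside, had a median log2 fold change of 2.65 with 28.3% of peaks past 8-fold, and the 40 loci of 8 peaks just inside had 2.68 and 27.2%. By span, the last loci inside were at 87615044 on the plus strand of chromosome 8 (5872 nt, 11 peaks, median 7.56-fold) and Cpsf1 at 76427493 on the minus strand of chromosome 15 (5994 nt, 19 peaks, 8.38-fold). The first outside were at 45610085 on the plus strand of chromosome X (6061 nt, 9 peaks, 6.39-fold) and at 113065041 on the plus strand of chromosome 6 (6083 nt, 12 peaks, 5.03-fold).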

How the data were processed

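The deposited list holds peaks of the whole series and 0 columns of single libraries, so the 2 input and 2 pulled-down libraries were not compared by a test. Each peak's log2 fold change is the authors' deposited value. Each −log10 p-value is likewise deposited by the authors. The sources used here do not give what the fold compares, the test behind the p, the peak caller, the depth or any pooling of replicates. Per the submitters' processing notes, cutadapt 1.18, STAR 2.6.1b and mm9 were used, without roles. Positions are those of the list, and can be off by 1, since the header does not say whether they count from 0 or 1.

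Members and lists were chosen with earlier results of these data known. Loci named by rule are the 5 with the most peaks, the highest and the lowest median log2 fold change, the highest median −log10 p and the most peaks per 1000 nt, with the 2 on either side of the span limit and the 5 highest peaks, ties by chromosome and start. Other genes were picked after their values were seen.

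The rule written at the start took gene names only from mm9 or, as background, from certain knowledge. The match of gaps to introns departs from it. An earlier version used the order of the lengths alone, and exons of GRCm38 were also slid along loci by a constant shift for a larger set of genes, including the 5 named from background whose names were kept after that look. No value printed comes from it. Python 3.11.15 with pandas 2.3.3, numpy 2.4.6 and scipy 1.17.1 was used, and the joining and the match were tested on simulated data. How reads shared with gene copies, such as those of Hnrnpa1, were counted is not known here.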

Additional observations from a re-analysis of the deposited data

How the results depend on the processing

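No paired analysis was possible because the list holds no values per library. Counts of loci and member peaks follow the rule: 261 and 2887 with a joining gap of 5000 nt, 83 and 978 with 20000 nt, 265 and 2357 from 6 peaks, 66 and 959 from 10 peaks, 82 and 819 with a span of at most 4000 nt, and 192 and 2375 with 8000 nt. Merging adjoining peaks first left 58 and 594, and merging peaks within 50 nt left 41 and 408, so the number of compact loci rests on how finely the list splits its peaks.

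The median log2 fold change stayed below that of the other loci under every alternative run, by -0.090 with each locus counted once, -0.112 with sites counted once, -0.106 in loci of 8 to 15 peaks, -0.110 with a gap of 5000 nt, -0.162 and -0.096 with spans of 4000 and 8000 nt, and -0.134 without tied p-values, beside -0.133. The difference in median −log10 p, 0.854, was 0.695, -0.466, 1.172, 0.359, 0.356, 0.688 and 0.663 under the same 7, and -0.069 without the loci that hold a peak at 400, an alternative chosen after seeing the data. The share past 8-fold was 30.94% for the highest peak of each site, 23.57% with spans of at most 4000 nt and 2.074% at 16-fold. The median gap between sites was 210 nt with only adjoining peaks merged, 404.5 nt with sites within 100 nt and 268 nt with spans of at most 4000 nt.

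The median correlation of −log10 p with position was -0.117 without the first and last peak, -0.314 with sites counted once, -0.098 with peak width held fixed, -0.231 from 10 peaks, -0.167 on the plus and -0.213 on the minus strand, and, added after seeing the data, -0.206 without tied values and -0.156 without loci at 400. For log2 fold change the first 6 of these gave 0.021, -0.071, 0.016, -0.040, 0.050 and -0.081, around 0.

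The match of gaps to introns named 28 loci with exact lengths and distances, all 28 with the same gene, and 0 loci of the opposite strand reached 2 matches. With a tolerance of 3 nt and distances within 6 nt it named 79, of which 52 had the same gene, but 15 loci matched 2 introns of an opposite-strand gene.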
